A study of Mus musculus with 6 samples.

Results

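Caveolins and cavins are the structural proteins of caveolae, and 7 of their genes were described here: Cav1, Cav2, Cav3, Cavin1, Cavin2, Cavin3 and Ehd2. They were found by gene symbol in a table of 54532 genes, and all 7 passed the filter on low counts. RNA-seq of poly-A selected RNA was made from untreated wild-type cultures labelled MAEC, for mouse aortic endothelial cells, to compare the sexes. The female group and the male group held 3 libraries each, and both were grown alike in F-12 medium, to which heparin, serum and factors for endothelial growth were added. The labels tag the cells as a cell line and give no age. They do not say whether replicates stem from different mice or dishes. The p-values therefore measure no more than how far these samples spread, possibly for technical reasons. For the same reason, a difference between the sexes cannot be told apart from one between the cultures used for each sex.

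Caveolae are flask-shaped pits of the plasma membrane that flatten under tension, concentrate receptors and carry cargo across cells. Caveolins sit in the membrane as oligomers, with Cav1 and Cav2 together in most tissues and Cav3 in striated muscle. Cavins form a coat on the cytosolic side of the caveolins. Cavin1 is required for caveolae to form, Cavin2 and Cavin3 join the coat as further subunits, and the ATPase Ehd2 gathers at the neck and holds the pit at the surface. Caveolae are plentiful in endothelium, smooth muscle, adipocytes and fibroblasts, and Cav1 is known in endothelium as a binding partner and inhibitor of the nitric oxide synthase Nos3.

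The cultures carried few transcripts of endothelial identity. Of 20 endothelial marker genes, 16 stayed under 1 CPM (the count relative to the TMM-scaled library size) in every library, and no read was counted for Cldn5, Robo4, Tal1, Tie1 or Cdh5. Those above 1 CPM were Eng (171 CPM in the female set and 199 in the male set), Flt1 (58 and 70.3), Plvap (3.53 and 113) and Egfl7 (1.47 and 3.58). The summed level of the list was 230 to 246 CPM in the female set and 363 to 415 CPM in the male set, and most of that difference was Plvap, the one gene of 5 tested that edgeR called (lower in female).

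Markers of other cell types also moved between the sexes beside the caveolar genes. Their counts are set beside the 18.3% of all tested genes that edgeR called at an adjusted p under 0.05 (9.68% higher in female, 8.62% lower). The 14 fibroblast markers summed to 14255 to 15016 CPM in the female set and 11643 to 12292 CPM in the male set, with 1 under 1 CPM everywhere. Of 13 tested, edgeR called 6 higher in female, among them Lum (28.9-fold), Dcn (3.59-fold) and Col3a1 (2.47-fold), and 3 lower, among them Fbln2 and Vim (male over female 2.56- and 2.13-fold). Adipocyte markers (10 genes) summed to 72.8 to 84.9 and 147 to 182 CPM, with 5 under 1 CPM everywhere, Cidec and Lep of these at 0. Of 5 tested, 4 were lower in female, namely Plin4 (2.57 against 31.3 CPM), Pparg (9.78 against 27.6), Cebpa (30 against 62.1) and Lpl (12.5 against 22.8). Smooth muscle markers (10 genes) summed to 137 to 138 and 147 to 181 CPM. Most of each sum came from Smtn (112 and 130 CPM), which was not called (edgeR adjusted p = 0.218). Of the 10 genes, 3 stayed under 1 CPM everywhere, among them the defining gene Myh11 (0.147 and 0.138 CPM). Of 6 tested, Acta2 was lower in female (3.23 against 20.4 CPM, edgeR adjusted p = 7.6e-05), and Itga8 and Synpo2 were higher. The part that these markers play in the results below was not tested, and in bulk RNA fewer cells of a type and less RNA per cell cannot be told apart. Library totals ran from 17410996 to 22993574 counts. Male replicate 3 stood apart within its sex, with a chi-square per degree of freedom of 77.4 and 52.9 against male replicates 1 and 2, where these 2 differed by 13.1 and female pairs by 7.77 to 17.3.

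The caveolar genes differed between the sexes in opposite directions. Cav1, Cav2 and Cavin2 were higher in female libraries, by 2.49-, 1.73- and 2.47-fold. Cavin3, Cavin1 and Ehd2 were lower, with male over female folds of 2.77, 1.46 and 1.28. Cav3 was scarce and was not called. By edgeR at an adjusted p under 0.05, 3 of the 7 genes were higher in female and 3 lower. Over all 14932 tested genes 18.3% were called, 9.68% higher and 8.62% lower. For 6 of the 7 genes no female value fell within the male range or the reverse, as for 35.9% of all tested genes. The median log2 fold change of the 7 genes was -0.23, and that of all tested genes -0.01. With 3 genes called on each side, this median is the value of the scarce Cav3 and shows no common shift. Without female replicate 1 a single gene, Cavin3, was called lower, and the 3 higher calls held without each library in turn.

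**Figure D1:**
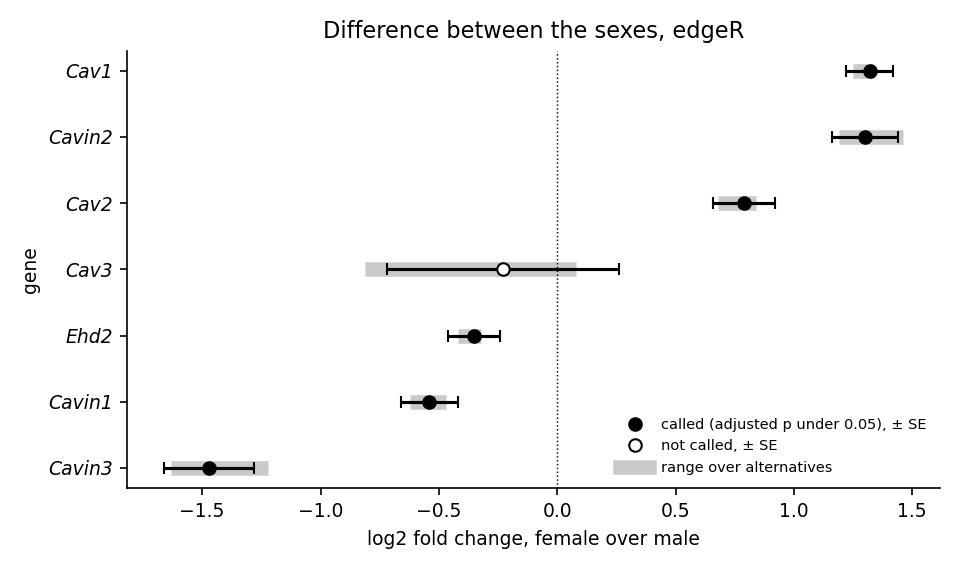
Log2 fold change of each gene (female over male, horizontal axis) from edgeR with its SE, over 3 libraries per sex; filled points passed an adjusted p under 0.05, and grey bars span the alternative analyses. Cav1, Cavin2 and Cav2 lie right of 0 under every alternative drawn, Cavin3, Cavin1 and Ehd2 lie left of it, and the bar of Cav3 crosses it.

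Per length, Cavin1 was the most abundant of the 7 transcripts in both sexes. On the RPKM scale (CPM per kilobase of gene length) it stood at 134 ± 7.76 in the female set and 196 ± 19.8 in the male set (SD, n = 3 each, as for all levels below). By RPKM it ranked at 212 of the 14932 tested genes. In female libraries Ehd2 followed with 43.7 ± 2.33 RPKM and Cav1 with 35.6 ± 2.44, then Cavin2 with 15.6 ± 1.12, Cavin3 with 14.3 ± 0.976, Cav2 with 13.1 ± 0.668 and Cav3 with 0.94 ± 0.565. The ranges of Cavin2 and Cavin3 overlapped, as did those of Cavin3 and Cav2, although inside each of the 3 female libraries Cavin2 was above Cavin3 and Cavin3 above Cav2. In male libraries the order was Cavin1, Ehd2 (55.9 ± 4.34 RPKM), Cavin3 (39.5 ± 11.3), Cav1 (14.3 ± 0.46), Cav2 (7.57 ± 0.966), Cavin2 (6.32 ± 0.858) and Cav3 (1.12 ± 0.193). There Ehd2 overlapped Cavin3, and Cav2 overlapped Cavin2, and each of these orders held in 2 of 3 libraries. Cavin3 thus stood directly above Cav1 in male libraries, with no overlap, and below both Cav1 and Cavin2 by its mean in female libraries.

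**Figure D2:**
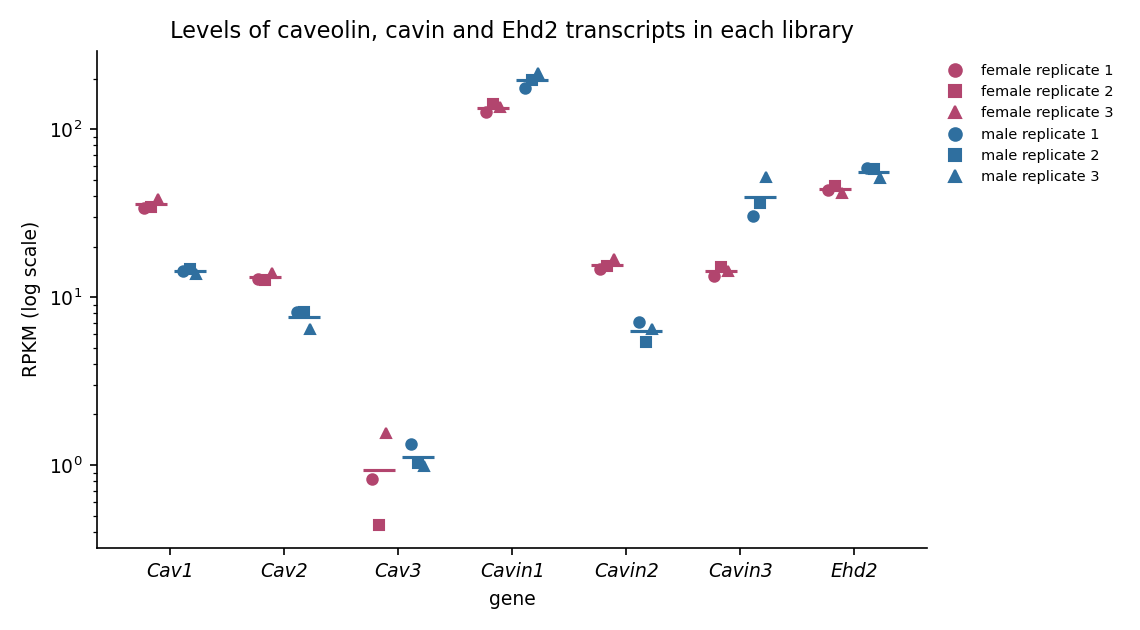
RPKM (log axis) of the 7 genes in each of the 6 libraries, with a bar at the mean of each sex. Female and male points are apart for every gene but Cav3, and the male points of Cavin3 reach from 30.3 to 52.2.

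Of the caveolins, Cav1 forms the oligomeric scaffold of caveolae outside striated muscle. Its level was 117, 119 and 132 CPM in female libraries 1 to 3 and 49.1, 50.8 and 47.6 CPM in male libraries 1 to 3. The lowest female library held 2.3 times the CPM of the highest male library. The log2 fold change was 1.32 ± 0.10 (SE; edgeR adjusted p = 1.93e-05). Its variation within a sex was small, at a coefficient of variation of 6.84% in the female set and 3.22% in the male set.

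Cav2, which is retained in the Golgi in cells without Cav1 and reaches caveolae bound to it, followed the same direction with a smaller difference. It stood at 42.7, 42.3 and 46.3 CPM in female libraries 1 to 3 and 27.1, 27.1 and 21.5 CPM in male libraries 1 to 3, with male replicate 3 the lowest of all 6. The log2 fold change was 0.79 ± 0.13 (edgeR adjusted p = 0.00204). Inside each library, Cav2 took 0.369 ± 0.00775 of the counts per kilobase of Cav1 in the female set and 0.529 ± 0.0548 in the male set. This ratio was lower in all 3 female libraries than in any male library (log2 difference -0.52, two-sided exact permutation p = 0.1, the smallest that 3 against 3 can give, and 0.125 adjusted over the 5 ratios tested).

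Cav1 (ENSMUSG00000007655, chromosome 6, 17306335 to 17341452, plus strand) and Cav2 (ENSMUSG00000000058, chromosome 6, 17281185 to 17289115, plus strand) are neighbours, with 17.2 kb between the end of Cav2 and the start of Cav1. Gene coordinates are as deposited, and for all 7 genes equal those of GENCODE M21 on GRCm38. Gm15581, an antisense gene that overlaps both, had 0 counts in all 6 libraries. The other 5 protein-coding genes within 500 kb did not all follow the pair. Capza2 (log2 fold change -0.12 ± 0.10), St7 (-0.26 ± 0.14) and Met (-0.17 ± 0.19) were not called by edgeR (adjusted p = 0.464, 0.246 and 0.626). Tes was lower in female (-0.74 ± 0.10, edgeR adjusted p = 0.000773), and Tfec higher (1.24 ± 0.34, edgeR adjusted p = 0.0332). The call of Tfec was lost without each female library and without male replicate 1.

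The sequences before the start sites of the 3 genes that were higher in female are shown to set the adjacent pair beside the unlinked Cavin2. They are the 250 bases before the first RefSeq start (GRCm38.p6, plus strand, 5′ to 3′), with matches to the motifs described further on in capitals. The window of Cav2 is chr6:17280935-17281184, that of Cav1 chr6:17306085-17306334 and that of Cavin2 chr1:51288876-51289125.
Cav2: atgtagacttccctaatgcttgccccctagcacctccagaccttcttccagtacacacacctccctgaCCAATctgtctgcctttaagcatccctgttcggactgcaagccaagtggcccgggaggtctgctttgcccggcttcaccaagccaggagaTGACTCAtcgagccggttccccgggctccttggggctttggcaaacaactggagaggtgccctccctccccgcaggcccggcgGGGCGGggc
Cav1: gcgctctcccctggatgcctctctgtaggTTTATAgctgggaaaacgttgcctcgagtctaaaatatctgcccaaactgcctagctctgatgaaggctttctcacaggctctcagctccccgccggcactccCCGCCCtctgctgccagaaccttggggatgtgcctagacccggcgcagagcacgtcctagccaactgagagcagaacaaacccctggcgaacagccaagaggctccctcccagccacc
Cavin2: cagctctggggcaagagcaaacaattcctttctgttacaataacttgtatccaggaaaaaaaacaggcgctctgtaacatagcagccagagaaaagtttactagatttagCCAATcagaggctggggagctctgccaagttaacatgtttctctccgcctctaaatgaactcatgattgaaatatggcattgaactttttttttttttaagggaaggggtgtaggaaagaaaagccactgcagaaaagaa

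The promoter of Cavin2 differed in base composition from those of the caveolin pair. With the 50 bases after the start included, G and C made up 43.3% of the Cavin2 window and 64.3% and 59.3% of the Cav2 and Cav1 windows, beside a median of 52.7% over 32851 windows of that length. These windows held 4 CpG sites in Cavin2, 16 in Cav2 and 13 in Cav1 (median of all windows 7). The windows of Cavin1, which was lower in female, held 67% and 66.7% G and C with 18 and 17 CpG sites. That of Ehd2, also lower, held 62% with 18 CpG sites. Windows above the median were thus present in genes of both directions. Cavin2 and the pair had the same direction between the sexes, and any link of base composition to direction was not tested.

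A search of both strands covered 7 motifs, namely the GC box (GGGCGG), the CCAAT box (CCAAT), the TATA box (TATAAA), a sterol regulatory element (TCACNCCAC), a forkhead motif (TGTTTAC), the TEAD motif MCAT (CATTCC) and the AP-1 motif (TGANTCA). The share of all windows that held each was, in that order, 35.7%, 37.4%, 13.6%, 1.24%, 3.65%, 14.7% and 7.81%. Cav2 held 2 overlapping GC boxes next to the start, 1 CCAAT box and 1 AP-1 match. At its first start Cav1 held 2 GC boxes and 1 TATAAA, all on the opposite strand, and Cavin2 held 1 CCAAT box. The window of a second RefSeq start of Cav1, at 17307640, held none of the 7 motifs (62.3% G and C, 16 CpG sites). In Cav2 and in Cav1, 1 GC box crosses the start site and so is not whole in the printed bases. Among the genes lower in female, Cavin1 held 1 GC box, 1 CCAAT box and 1 MCAT match, and Ehd2 held 2 GC boxes and 1 CCAAT box. The CCAAT box was thus present in genes of both directions. No window of these genes held the letters of the sterol or forkhead motif. A match is a description of letters and not of a bound site. RefSeq windows were found for 6 of the 7 genes, and not for Cavin3.

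Cav3, the caveolin of striated muscle (ENSMUSG00000062694, chromosome 6, 112459505 to 112472872, plus strand), was at the edge of detection. It had 21, 9 and 42 counts in female libraries 1 to 3 and 32, 27 and 20 counts in male libraries 1 to 3, that is 0.507 to 1.8 CPM and 1.14 to 1.55 CPM. Female libraries held both the highest and the lowest value. The log2 fold change of -0.23 ± 0.49 was not called (edgeR adjusted p = 0.803), and its SE is too wide to show that the sexes were alike. It was 0.08 without female replicate 2 and -0.81 without female replicate 3. Of 12 striated muscle markers, 9 stayed under 1 CPM in every library. The 2 tested were called in opposite directions. Tnnt3 was higher in female (6.27 against 1.48 CPM, edgeR adjusted p = 0.000748), and Tnni1 lower (0.253 against 3.53 CPM, edgeR adjusted p = 0.000282).

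Of the cavins, Cavin1, the coat subunit without which caveolae do not form (ENSMUSG00000004044, chromosome 11, 100956733 to 100970887, minus strand), was lower in female. Its level was 453, 508 and 485 CPM in female libraries 1 to 3 and 630, 703 and 772 CPM in male libraries 1 to 3. The groups did not overlap, with the lowest male library at 1.24 times the highest female library. The log2 fold change was -0.54 ± 0.12 (edgeR adjusted p = 0.00903). Without female replicate 1 it was -0.51 with an edgeR adjusted p of 0.0538, so the call was lost there while the size was kept.

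Cavin2, which binds phosphatidylserine and shapes caveolar membrane (ENSMUSG00000045954, chromosome 1, 51289126 to 51302960, plus strand), went the other way. It stood at 44.8, 46.7 and 51.4 CPM in female libraries 1 to 3 and 21.7, 16.5 and 19.8 CPM in male libraries 1 to 3. Each female library was at least 2.07 times as high as each male library. Its log2 fold change was 1.30 ± 0.14 (SE; edgeR adjusted p = 0.000125). Its antisense gene 9330175M20Rik had 10 counts over the 6 libraries together.

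Cavin3, a coat subunit known for binding protein kinase C delta (ENSMUSG00000037060, chromosome 7, 105480083 to 105482300, minus strand), was lower in all 3 female libraries than in any male library. It had 22.1, 25.3 and 23.8 CPM in female libraries 1 to 3 and 50.4, 60.0 and 86.7 CPM in male libraries 1 to 3. Male replicate 3 was the highest, and the male coefficient of variation was 28.6% against 6.84% in female libraries. Its log2 fold change was -1.47 ± 0.19 (SE; edgeR adjusted p = 0.000495). It was in size above those of Cav1 and Cavin2, an order lost without male replicate 3, where they were 1.29 and 1.32 and Cavin3 stood at -1.22 (edgeR adjusted p = 2.99e-08), and by voom in limma with quality weights (-1.30 against 1.46 for Cavin2). The lowest male value, that of male replicate 1, was 1.99 times the highest female value.

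The cavin transcripts therefore had another makeup in the female and the male libraries. Cavin1 gave 81.8 ± 0.504% of their summed RPKM in the female set and 81.2 ± 2.25% in the male set, which overlapped. Cavin2 gave 9.5 ± 0.624% and 2.66 ± 0.583%, and Cavin3 gave 8.69 ± 0.138% and 16.2 ± 2.55%. The lowest female share of Cavin2 (8.87%) was above the highest male share (3.33%), and the highest female share of Cavin3 (8.85%) was under the lowest male share (14.2%). Of the summed caveolin RPKM, Cav1 gave 71.7 ± 0.64% in the female set and 62.3 ± 2.5% in the male set.

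**Figure D3:**
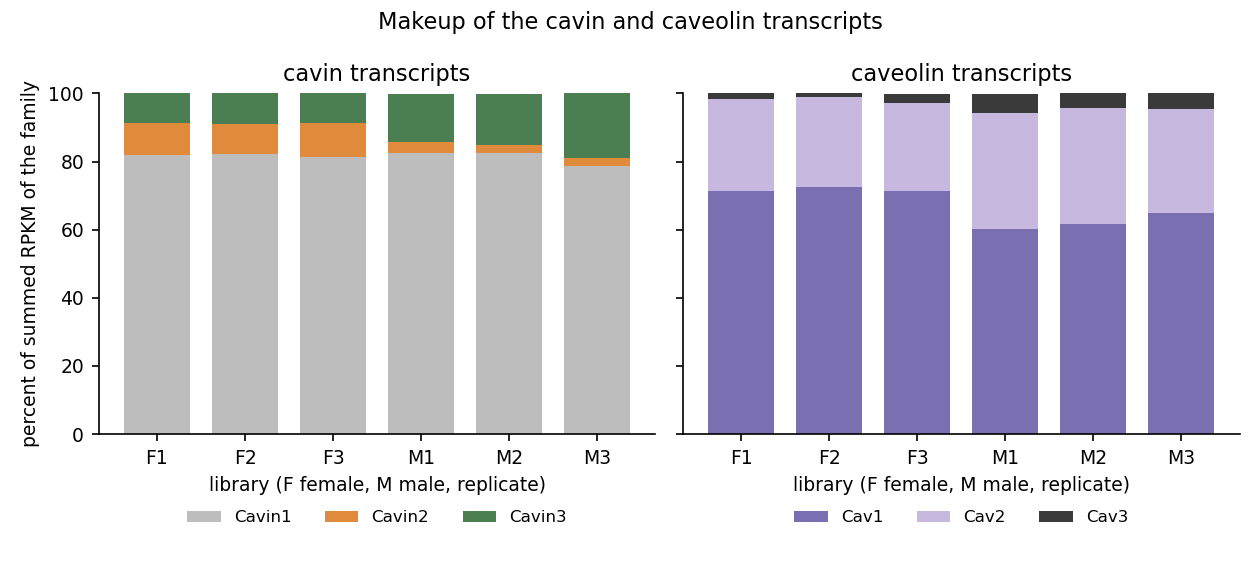
Percent of the summed RPKM of the 3 cavins (left) and of the 3 caveolins (right) taken by each gene, 1 bar per library (F female, M male). The Cavin1 part is about as tall in both sexes, while Cavin2 takes 8.87 to 10.1% in female and 2.27 to 3.33% in male libraries, and Cavin3 8.6 to 8.85% and 14.2 to 19.1%.

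Ehd2, the ATPase of the caveolar neck (ENSMUSG00000074364, chromosome 7, 15946958 to 15967567, minus strand), had 224, 236 and 212 CPM in female libraries 1 to 3 and 299, 299 and 260 CPM in male libraries 1 to 3. Male replicate 3 was the nearest to the female libraries, and the groups did not overlap. The log2 fold change of -0.35 ± 0.11 passed narrowly (edgeR adjusted p = 0.0479). The call was lost without each library other than male replicate 3, with edgeR adjusted p-values of 0.0924 to 0.193, and without male replicate 3 it was 0.000733 at a log2 fold change of -0.42. Relative to Cavin1 in the same library, Ehd2 did not separate the sexes, with ratios of counts per kilobase of 0.326 ± 0.0199 in the female set and 0.289 ± 0.0487 in the male set (log2 difference 0.19, two-sided exact permutation p = 0.3, and 0.3 adjusted over the 5 ratios).

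Because caveolins and cavins assemble together, their ratios inside each library were compared, which do not depend on the scaling between libraries. Cav1 per Cavin1 was 0.269, 0.243 and 0.284 in female libraries 1 to 3 and 0.0812, 0.0753 and 0.0642 in male libraries 1 to 3, a 3.62-fold difference. Cavin2 per Cavin1 was 0.116 ± 0.00835 in the female set and 0.0327 ± 0.00677 in the male set, a 3.6-fold difference. Cavin3 per Cavin1 was 0.106 ± 0.00119 and 0.2 ± 0.0374, and so 1.86-fold higher in male. All 3 female libraries lay on the same side of all 3 male libraries for these ratios. Each had a two-sided exact permutation p of 0.1, the smallest possible here, and an adjusted value of 0.125 over the 5 ratios, so none could pass 0.05 in this design.

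Summed over the families, the 3 caveolins reached 49.7 ± 3.61 RPKM in the female set and 23 ± 1.48 in the male set, while the 3 cavins reached 164 ± 9.19 and 241 ± 30.6. The ratio of summed caveolins to summed cavins was 0.303 ± 0.0242 in the female set and 0.0966 ± 0.0172 in the male set. The sum over all 7 genes was 258 ± 10.8 RPKM in the female set and 320 ± 25.4 in the male set, with no overlap. Without Cavin1 the sums were 123 ± 3.68 and 125 ± 5.69 RPKM and overlapped. These sums are given as values without a test.

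**Figure D4:**
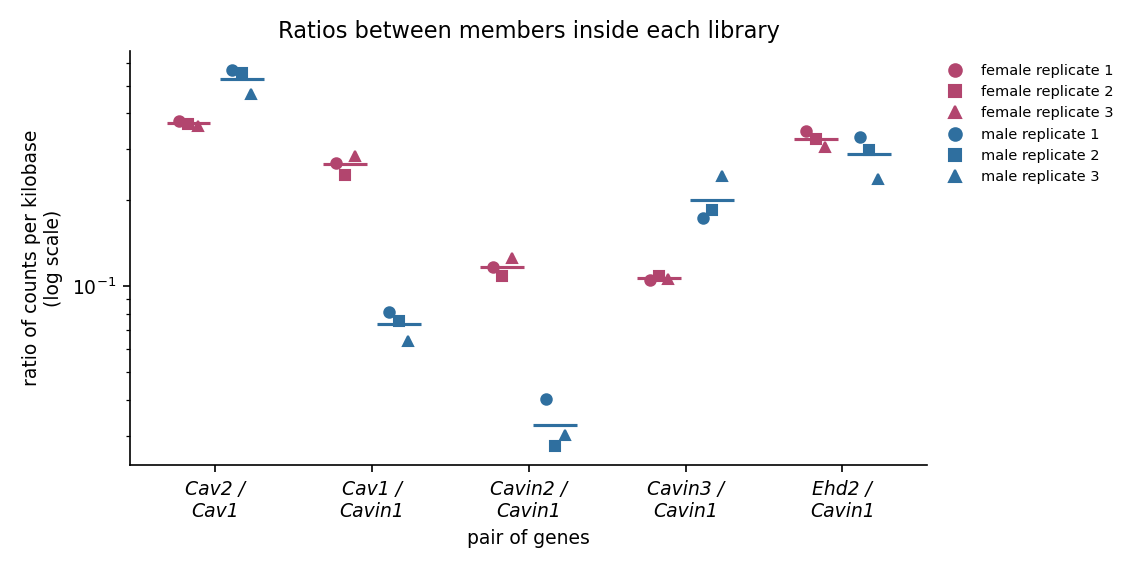
Ratio of counts per kilobase for 5 pairs of genes in each library (log axis), with a bar at the mean of each sex. The sexes are apart for every pair but Ehd2 with Cavin1, and Cav1 per Cavin1 is 0.243 to 0.284 in female and 0.0642 to 0.0812 in male libraries.

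Further lists hold genes of the pathway, and their counts are read against the 18.3% called over all tested genes. Of 9 listed proteins that assist caveolae 7 were tested, and by edgeR 1 was higher in female, 3 were lower and 3 were not called (median log2 fold change -0.54). The Ehd2 paralogues Ehd4 (12.9 ± 1.8 CPM in female cells, 29.2 ± 1.54 in male cells, edgeR adjusted p = 0.000342) and Ehd3 (3.32 ± 0.0962 and 6.64 ± 2.4, edgeR adjusted p = 0.0355) were lower in female. So was Ror1, a receptor-like kinase that binds Cavin1 and Cav1 (22 ± 3.29 and 33.5 ± 5.18 CPM, edgeR adjusted p = 0.029). Filip1l was higher (log2 fold change 0.58 ± 0.17, edgeR adjusted p = 0.0429). Pacsin2, which bends membrane at the caveolar neck, had 98.8 ± 7.57 CPM in the female set and 103 ± 7.13 in the male set and was not called (edgeR adjusted p = 0.778). Ehd1 had 133 ± 4.83 and 164 ± 20.8 CPM and was not called either (edgeR adjusted p = 0.106). The muscle cavin Cavin4 was not tested, at 0.178 CPM in the female set and 0.272 CPM in the male set. Without each of the female libraries and without male replicate 2, 1 gene of this list was called lower and 0 higher.

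Among 11 genes of endocytosis and caveolin phosphorylation, edgeR called 0 higher and 2 lower in female (median log2 fold change 0.11), a share close to the 18.3% of all tested genes. DESeq2 found 0 higher and 3 lower, voom in limma, with quality weights, 2 and 4, and 1 and 4 had an unadjusted edgeR p under 0.05. The kinase gene Src, whose product phosphorylates Cav1, was lower (52.8 ± 4.54 CPM in female cells, 78.8 ± 3.27 in male cells, edgeR adjusted p = 0.0047). So was Flna, a filamin that links Cav1 to actin (617 ± 41.5 and 943 ± 153 CPM, edgeR adjusted p = 0.0127). Without male replicate 3, 4 genes of this list were lower, and without female replicate 2, female replicate 3 or male replicate 2, 1 was. Of 6 tested flotillin and raft genes 1 was higher and 2 lower (median -0.06). Flot2, a scaffold of flat membrane rafts, had 78.4 ± 1.43 CPM in the female set and 104 ± 3.77 in the male set (edgeR adjusted p = 0.017), while Stom, of the related stomatin family, had 153 ± 7.9 and 111 ± 9.74 (edgeR adjusted p = 0.0132). The raft adaptor gene Pag1 was low in both sexes, at 0.331 ± 0.0996 CPM in the female set and 2.87 ± 1.05 in the male set (edgeR adjusted p = 0.00105). The higher call was lost without female replicate 2, female replicate 3 and male replicate 2, and 1 of the lower calls without each female library.

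Among 15 tested genes for caveolar partners and cargo, 3 were higher in female and 5 lower by edgeR (median log2 fold change -0.16). Plvap, which forms the diaphragms across caveolar necks and fenestrae, had 3.11, 3.88 and 3.59 CPM in female libraries 1 to 3 and 83.1, 111 and 144 CPM in male libraries 1 to 3 (log2 fold change -5.00 ± 0.23, edgeR adjusted p = 9.07e-07). Its difference was opposite to that of Cav1 and in the direction of Cavin3. Trpc1, a cation channel that binds Cav1, was lower in female (0.883 ± 0.0871 and 7.61 ± 0.206 CPM, edgeR adjusted p = 1.29e-05), as was the receptor gene Pdgfrb (352 ± 21.7 and 832 ± 103 CPM, edgeR adjusted p = 9.19e-05). The fatty acid transporter gene Cd36 was higher (13.9 ± 1.92 and 4.07 ± 0.517 CPM, edgeR adjusted p = 0.000121). Nos3, the endothelial partner of Cav1, did not pass the filter on low counts and was not tested. Its highest level in any library was 0.641 CPM. Without male replicate 3 the list had 4 higher and 8 lower calls, and 2 higher calls without each female library and without male replicate 2.

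Of 16 tested genes listed as regulators of caveolar genes, edgeR called 0 higher and 3 lower (median log2 fold change -0.15), again a share close to the 18.3% of all tested genes. DESeq2 found 2 higher and 5 lower, voom in limma, with quality weights, 3 and 7, and 3 and 6 had an unadjusted edgeR p under 0.05. Those lower in female were Pparg, the adipogenic nuclear receptor (9.78 ± 1.93 and 27.6 ± 2.72 CPM, edgeR adjusted p = 0.000246), the flow-responsive factor gene Klf2 (10.7 ± 0.501 and 22.3 ± 4.81 CPM, edgeR adjusted p = 0.00259) and Tead4 (0.774 ± 0.378 and 4.55 ± 0.599 CPM, edgeR adjusted p = 0.00123). Foxo3 was not called, with 157 ± 7 CPM in the female set and 117 ± 18.4 in the male set (edgeR adjusted p = 0.0503). Without male replicate 3 the counts were 3 higher and 6 lower, and without male replicate 1 they were 2 and 3.

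**Figure D5:**
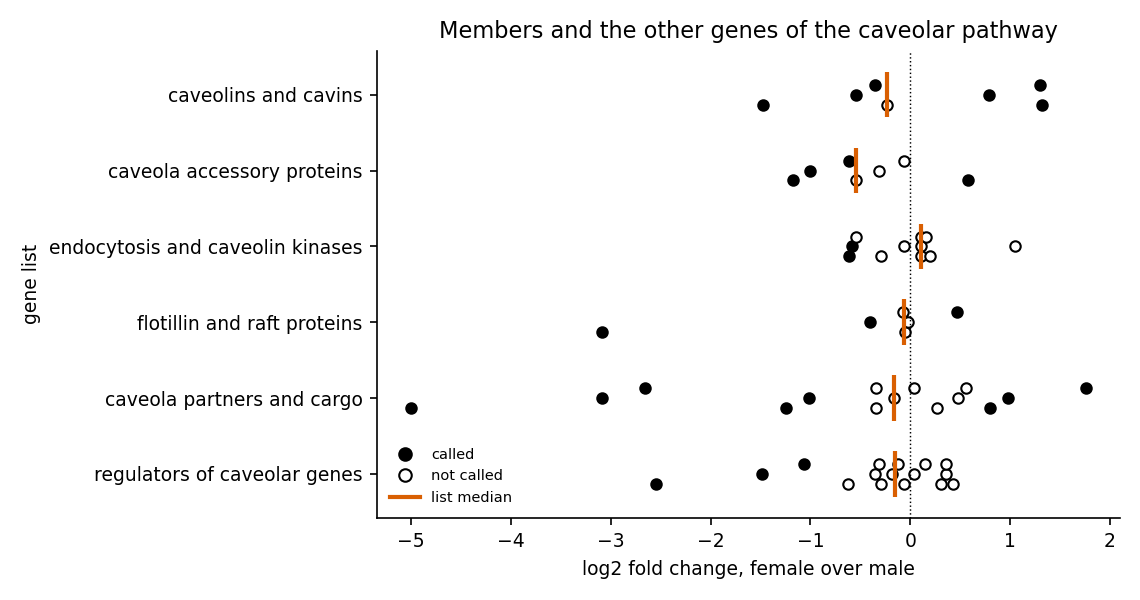
Log2 fold change (female over male, horizontal axis) of every tested gene of 6 lists, filled where edgeR called it, with the list median as an orange bar; the small vertical offsets only separate points. The caveolins and cavins form 3 called points on each side of 0, and Plvap is the leftmost point at -5.00.

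The 7 genes also differed in which of their family they most resembled over the 6 libraries. Likeness was measured as the root mean square difference of log2 CPM after centring each gene on its own mean, so that smaller is closer. Cav1 lay nearer to Cavin2 (0.133) than to Cav2 (0.275), and far from Cavin1 (0.931) and Cavin3 (1.39). Cavin1 lay nearest to Ehd2 (0.18), then to Cav3 (0.432, on only 9 to 42 counts per library) and Cavin3 (0.463). These values include the difference between the sexes that the fold changes already show, and rest on 6 libraries.

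Each gene was also compared with a pool of 9156 protein-coding genes with a mean of at least 10 CPM, less the compared gene itself. The closest to Cav1 were Gch1 (0.0203), Aldh3a2 (0.0414) and Lyn (0.0599). Gch1, the gene of GTP cyclohydrolase, had a mean of 105 CPM in the female set and 42.1 CPM in the male set. Cavin2 was closest to Casp4 (0.0609), Lyn (0.0839) and Vegfd (0.0919), so that the kinase gene Lyn stood among the nearest of both. Cav2 was closest to Wdfy1 (0.0371), Txndc16 (0.0474) and Hs2st1 (0.0516). Of the genes lower in female, Cavin1 was closest to Hlx (0.0382), Sqor (0.0458) and Rras2 (0.0462), and Ehd2 to Fgd1 (0.0364), Vps26b (0.0405) and Rasa3 (0.0442). Cavin3 was closest to Ckb (0.0566), Dusp5 (0.103) and Igfbp4 (0.109). Cav3, with its few counts, had no close match, the nearest being Yae1d1, Pwwp2a and Tab3 at 0.191 to 0.194.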

How the data were processed

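The deposited table holds counts, given by the authors as whole-number reads per gene and library without normalization, with gene symbols, coordinates and gene lengths. The tools named, per the submitters' processing notes, are HISAT2 2.0.5 and featureCounts 1.5. The build was not given in the sources used here, nor was the strand setting, and the labels' protocols name a directional and a non-directional kit without saying which was used. Of the identifiers 99.8% occur in GENCODE M21 (GRCm38), 98.3% of those with the same coordinates, and the deposited lengths of the 7 genes, another column of the table, equal the union of GENCODE exons. Counts per gene sum over isoforms, so the forms of Cav1 cannot be separated.

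Female and male libraries (3 each, by the titles) were compared with edgeR 4.0.16 in R 4.3.3 (quasi-likelihood F test, robust dispersions, TMM scaling, filterByExpr with a minimum count of 10), with Benjamini-Hochberg adjustment over the 14932 tested genes. This fit was tested on simulated data. Ratios were compared by exact permutation tests. Library totals set the counting precision, which for Cav3 rests on 9 to 42 counts. Other settings tried were DESeq2 1.42.0, voom with quality weights in limma 3.58.1, upper quartile or RLE scaling, no filter or a minimum mean of 50 counts, a block on replicate number, leaving out each library, a threshold of 0.01 and TPM. The genes and lists were chosen with earlier results of these data known. Named were all 7 genes, up to 4 genes per list with the smallest p, neighbours of Cav1 and Cav2, and the 3 genes most like each of the 7 (pseudocount 0.5 CPM). Ehd1, Pacsin2, Cavin4, Nos3 and some further cell type markers were named after their values were seen. Promoter windows are from RefSeq (GRCm38.p6), and the motifs were chosen with the results known.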

Additional observations from a re-analysis of the deposited data

How the results depend on the processing

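The directions of Cav1, Cav2, Cavin1, Cavin2, Cavin3 and Ehd2 held in all 13 alternatives run for each, with log2 fold changes of 1.25 to 1.34, 0.68 to 0.84, -0.62 to -0.47, 1.19 to 1.46, -1.63 to -1.22 and -0.42 to -0.32. Cav1, Cav2, Cavin2 and Cavin3 were called in all 13, Cavin1 in 12 and Ehd2 in 7. The call of Ehd2 was also lost without a filter (log2 fold change -0.36, edgeR adjusted p = 0.0569), where 25883 genes were tested. Cav3 ran from -0.81 (without female replicate 3) to 0.08 (without female replicate 2, reversed), and its few counts limit what can be said of it. Leaving out each library gave 1 to 3 of the 7 genes lower, 967 to 2508 of all genes higher and 903 to 2543 lower, and over the 5 pathway lists 2 to 9 higher and 11 to 23 lower, where all libraries gave 5 and 15. The values without male replicate 3 were the highest of these. Limma-voom with quality weights called 3305 of all genes higher and 3289 lower, and 12 and 26 in the lists. At an adjusted p under 0.01, 900 of all genes were higher and 835 lower, with 2 list genes higher. RLE scaling called 3 list genes higher, DESeq2 9 and the replicate block 8. The log2 ratio of the summed level of the 7 genes was -0.31 by RPKM and -0.22 by TPM. Apart from the stricter threshold, for which fewer calls follow from its construction, the cause was not tested. The replicate block changed no call of the 7 genes, and with it 1619 of all genes were higher and 1449 lower. Same-numbered libraries correlated in their deviations at 0.262, -0.0323 and 0.18, and libraries of different numbers at -0.354 to 0.256. These ranges overlapped, and the numbers were not taken to pair the samples.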
